A study of Mus musculus with 2 samples.

Results

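The aldo-keto and carbonyl reductases described here are 8 mouse genes, Akr1b3, Akr1b7, Akr1b8, Akr1c13, Akr1c14, Akr1a1, Cbr1 and Cbr3. They were taken by name from a table of 12631 gene rows, and all 8 had a row. The set was chosen from the measured levels and folds of these same libraries, so the differences below are descriptions of these 2 libraries and none is tested. Myh9 is the non-muscle myosin IIA heavy chain gene. RNA sequencing was done on intestinal epithelium of 1 control mouse, labelled wild type, and 1 mouse labelled Myh9-/-. Both were C57BL/6 mice 8 weeks old, both were given 5 daily tamoxifen injections, and the tissue was collected at day 5. The recombinase, its promoter and the deleted exons are not stated in the sources used here. The level of Myh9 was 99.5 in control and 13.6 in knockout epithelium, so its transcript was lower but still present. Each group held 1 library, so no value has a replicate error, and animal, library and genotype cannot be told apart.

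Aldo-keto reductases are NADPH-dependent enzymes that share a barrel fold and reduce aldehydes and ketones to alcohols. Carbonyl reductases do similar chemistry but belong to the unrelated short-chain dehydrogenase superfamily. In the gut epithelium both families remove reactive aldehydes from food and from lipid peroxidation, reduce retinaldehyde and quinones, and interconvert steroids and prostaglandins. Several members are known targets of NRF2 (gene Nfe2l2), the transcription factor of the antioxidant response, which KEAP1 holds in check and which binds DNA together with small MAF proteins.

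Many of these genes lie beside close relatives whose values differed, and the promoters of 2 such pairs from the same cluster are shown here for that reason. The stretches are the 250 bases before the RefSeq start of each gene in GRCm38.p6, all on the plus strand. RefSeq starts can differ from the GENCODE M21 positions given further below. The Cbr1 stretch lies inside its GENCODE gene, which begins at 93605853, so it is upstream of the RefSeq start only. Capitals mark the core of the xenobiotic response element, GCGTG on either strand. Cbr3 is at chr16:93682969-93683218, its neighbour Cbr1 at chr16:93607587-93607836, Akr1b8 at chr6:34353896-34354145 and its relative Akr1b7, with Akr1b10 between them, at chr6:34412112-34412361.
Cbr3: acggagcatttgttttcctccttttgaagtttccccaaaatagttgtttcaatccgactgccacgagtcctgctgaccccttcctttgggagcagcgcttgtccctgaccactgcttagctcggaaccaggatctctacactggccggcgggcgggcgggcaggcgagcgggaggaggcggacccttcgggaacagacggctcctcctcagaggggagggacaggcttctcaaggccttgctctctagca
Cbr1: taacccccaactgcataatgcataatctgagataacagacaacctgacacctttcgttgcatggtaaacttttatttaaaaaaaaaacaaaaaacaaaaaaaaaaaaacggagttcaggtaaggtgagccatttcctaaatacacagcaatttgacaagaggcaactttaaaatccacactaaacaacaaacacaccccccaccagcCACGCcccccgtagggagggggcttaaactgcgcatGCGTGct
Akr1b8: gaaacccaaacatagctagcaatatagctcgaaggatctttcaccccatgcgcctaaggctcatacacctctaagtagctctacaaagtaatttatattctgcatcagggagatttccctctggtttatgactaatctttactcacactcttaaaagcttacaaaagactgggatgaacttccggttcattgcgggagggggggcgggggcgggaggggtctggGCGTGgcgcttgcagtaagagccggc
Akr1b7: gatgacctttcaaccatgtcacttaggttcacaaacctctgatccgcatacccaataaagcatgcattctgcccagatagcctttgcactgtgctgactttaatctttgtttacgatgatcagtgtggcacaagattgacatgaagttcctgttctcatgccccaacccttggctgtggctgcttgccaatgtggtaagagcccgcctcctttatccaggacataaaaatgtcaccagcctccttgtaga
The Cbr3 stretch was 59.6% G or C and the Cbr1 stretch 41.6%, while Akr1b8 (49.6%) and Akr1b7 (46.8%) were closer to each other. The wider window, which adds 50 bases after the start, was available from RefSeq for 7 of the 8 genes, all but Akr1b3. It was searched on both strands for the antioxidant response element core TGACNNNGC, the AP-1 motif TGANTCA and GCGTG; the first 2 overlap each other where an antioxidant element holds an AP-1 motif. Neither TGACNNNGC nor TGANTCA was present in any of the 7 windows, against 12.4% and 7.81% of all 32851 promoter windows. GCGTG occurred once in Akr1b8, 26 bases before the RefSeq start but just inside the GENCODE gene, which begins at 34354119. It occurred 2 times in Cbr1 and once in Akr1c14, where it lay after the RefSeq start, and 32.4% of all windows held it. The windows of Cbr3, Akr1b7, Akr1a1 and Akr1c13 held none of these motifs. The Akr1c14 window (4059341 to 4059640) also lies inside its GENCODE gene (4049011 to 4090688). For Cbr1 and Akr1c14 the bases before the GENCODE start were not searched.

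Values are deposited expression levels with the 1 that the authors added removed. Their unit, and so whether they are scaled to gene length, is not stated in the labels or headers, so levels are compared between the 2 libraries and not between genes. Folds and log2 folds are of level plus 1, and a gene is called higher or lower in the knockout when that fold reaches 1.4, the threshold that the labels state. By this measure 4 of the 8 reductases were higher, 1 was lower and 3 lay between. Over all 12152 genes that reached a level of 1 in either library, 15.9% were higher and 16.3% lower, 32.3% in all; since the reductases were chosen with these values known, nothing is read from that contrast. The median log2 fold was 0.50 over the 8 and -0.0037 over all genes.

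**Figure D1:**
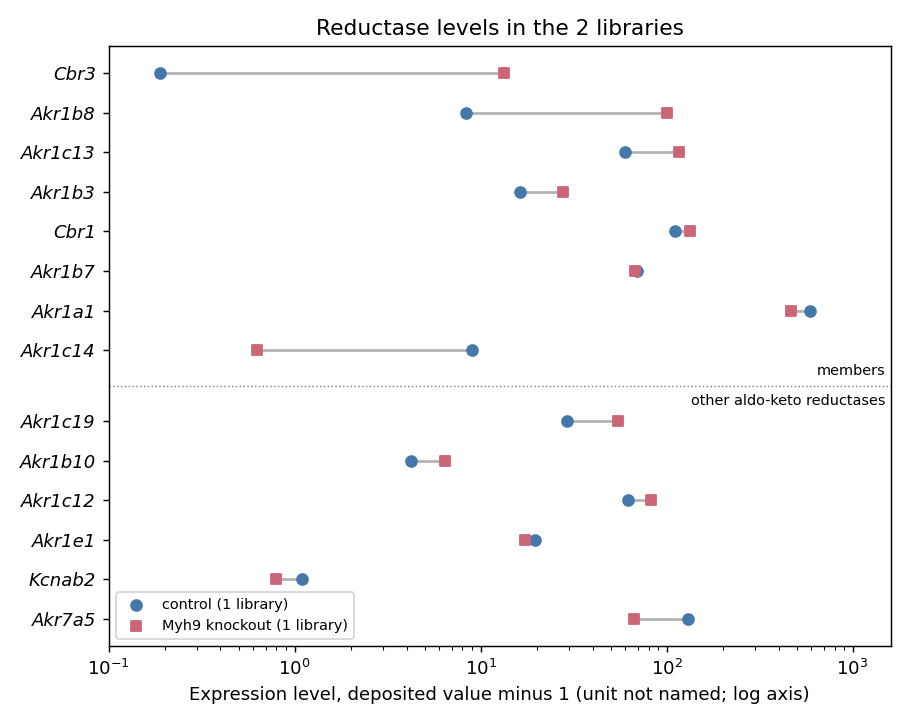
Levels of the 8 reductases and of the other 6 aldo-keto reductases with a row, as points for the control (circle) and the Myh9 knockout (square), 1 library each, on a log axis; levels are not comparable between genes. The widest gaps are those of Cbr3 (0.19 and 13.3), Akr1b8 (8.35 and 101) and Akr1c14 (9.04 and 0.63, in the other direction).

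Of the AKR1B genes, Akr1b8 stood apart. The mouse Akr1b8 enzyme, also called fibroblast growth factor regulated protein, reduces retinaldehyde and lipid-derived aldehydes and resembles the human intestinal enzyme AKR1B10. Its level was 8.35 in control and 101 in knockout epithelium, 10.9-fold higher, a log2 fold of 3.44 that ranked 16 among 12152 genes from the highest. The level was well above 1 in both libraries, and the ratio of levels with nothing added was 12.1. Akr1b3, aldose reductase, which turns glucose into sorbitol, was 16.3 in control and 27.8 in knockout epithelium, 1.66-fold higher. Akr1b7, known in mouse from the vas deferens and the adrenal gland, where it reduces a by-product of steroid synthesis, was 69.5 and 67.9. Its log2 fold of -0.03 became 0.07 when the knockout was rescaled to equal totals, so it has no fixed direction.

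The 4 Akr1b genes with a row lie side by side on chromosome 6 (GENCODE M21, mm10). Akr1b3 runs from 34302434 to 34317478 on the minus strand, and Akr1b8 (34354119 to 34368463), Akr1b10 (34384218 to 34396950) and Akr1b7 (34412334 to 34423142) follow on the plus strand. Akr1b10, which lies between Akr1b8 and Akr1b7, was 4.25 in control and 6.46 in knockout epithelium, 1.42-fold higher. The log2 folds along the cluster were thus 0.73, 3.44, 0.51 and -0.03. The nearest included genes outside it were Slc35b4, at 7.01 and 6.75, and Bpgm, at 25.2 and 37.6.

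These genes are similar enough for reads to be shared in part. The longest coding transcripts of Akr1b8 and Akr1b10 were 84.4% identical over their aligned bases, and 7.08% of the 31-base words of Akr1b8 also occurred in Akr1b10. Akr1b8 shared 3.09% of its words with Akr1b7 and none with Akr1b3. An annotated pseudogene on the opposite strand, Gm13857, overlaps exons of Akr1b7, and the strand setting of the counting is not given.

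**Figure D2:**
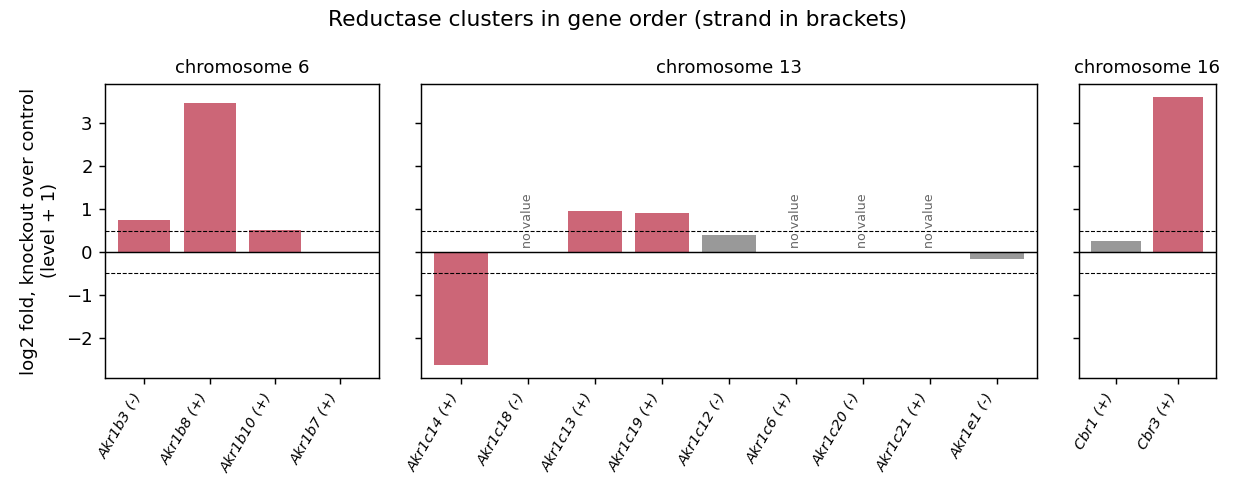
Log2 fold of level plus 1, knockout over control, for the Akr1b, Akr1c with Akr1e1, and Cbr genes in their order along chromosomes 6, 13 and 16, with the strand in brackets. Dashed lines are at 1.4-fold, coloured bars pass them, and "no value" marks genes with no row under that name. Akr1b8 (3.44), Cbr3 (3.59) and Akr1c14 (-2.62) stand far from the genes beside them.

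Of the AKR1C genes, which act on hydroxysteroids and related alcohols, Akr1c14 was the 1 reductase called lower. It encodes a 3-alpha-hydroxysteroid dehydrogenase, which inactivates dihydrotestosterone. Its level was 9.04 in control and 0.63 in knockout epithelium, 6.15-fold lower, and its log2 fold of -2.62 ranked 19 from the lowest. With nothing added the control level was 14.3 times the knockout level, which lay below 1. Akr1c13, a dehydrogenase of hydroxysteroids and alicyclic alcohols in mouse, was 59.8 in control and 116 in knockout epithelium, 1.93-fold higher.

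The Akr1c genes form a cluster on chromosome 13. Akr1c14 is the outermost, from 4049011 to 4090688 on the plus strand. Akr1c13 (4191150 to 4205596), Akr1c19 (4228700 to 4252843) and Akr1c12 (4268176 to 4279433, minus strand) follow. Akr1c19 was 29.0 in control and 54.7 in knockout epithelium, 1.86-fold higher. Akr1c12 was 62.3 and 82.2, 1.31-fold higher and under the threshold. Akr1e1, at the far end, was 19.6 and 17.4. The cluster thus held a gene with a log2 fold of -2.62 and 3 with 0.95, 0.89 and 0.39. Akr1c18, which lies between Akr1c14 and Akr1c13, had no row under that name, nor had Akr1c6, Akr1c20 and Akr1c21 of the same cluster. On the other side of Akr1c14, Tubal3 was 17.1 and 14.7.

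Akr1c12 and Akr1c13 cannot be fully separated. Their longest coding transcripts were 94.6% identical, and 39.2% of the 31-base words of Akr1c13 also occurred in Akr1c12, so the separate values of both are uncertain. Akr1c14 shared none of its words with Akr1c12, Akr1c13 or Akr1c19, and its difference has the opposite sign. It shared 0.70% of its words with Akr1c18 and 0.44% with each of Akr1c6 and Akr1c20, which had no row. An annotated pseudogene on the same strand, Gm18857, overlaps exons of Akr1c14. The part of read sharing in the Akr1c14 value was not tested.

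Akr1a1, aldehyde reductase, reduces glucuronate to gulonate on the way to ascorbate in mouse. It was 588 in control and 468 in knockout epithelium, a log2 fold of -0.33 that lay between the lines, and the fold was 1.26 toward the control. Its locus is the minus strand of chromosome 4, bases 116636510 to 116651680. Prdx1, the next included gene beyond its start, encodes a peroxiredoxin and was 654 and 692. Of the wider superfamily, Akr7a5, which reduces aflatoxin dialdehyde and succinic semialdehyde, was 130 in control and 66.6 in knockout epithelium, 1.94-fold lower. Past the 1.4-fold lines lay 15.9% of all included genes on the knockout side and 16.3% on the control side. Beside these shares, 2 of the other 6 aldo-keto reductases with a row were higher (Akr1c19 and Akr1b10), 1 was lower (Akr7a5) and 3 lay between. Their median log2 fold was 0.11, and 0.39 among those reaching a level of 5. Under rescaling by totals 3 were higher, Akr1c12 being the third. The list's other 8 genes had no row.

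The 2 carbonyl reductase genes lie next to each other on chromosome 16, both on the plus strand, Cbr1 from 93605853 to 93610505 and Cbr3 from 93683215 to 93690990. Cbr1 reduces quinones, anthracycline drugs and prostaglandin E2, and Cbr3 is a paralogue with a narrower range of substrates. Cbr3 was 0.19 in control and 13.3 in knockout epithelium, 12.1-fold higher, a log2 fold of 3.59 that ranked 12 from the highest. Its control level was below 1, so it entered only through the knockout, and the pseudocount sets the size of its fold: the log2 fold was 5.54 with 0.1 added and 6.14 with nothing added. Cbr1 was 111 and 134, a log2 fold of 0.26 between the lines. The longest coding transcripts of Cbr3 and Cbr1 were 78.3% identical, and 2.54% of the words of Cbr3 occurred in Cbr1. Setd4, before Cbr1, was 2.41 and 2.57, and Morc3, beyond Cbr3, was 6.00 and 9.74.

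**Figure D3:**
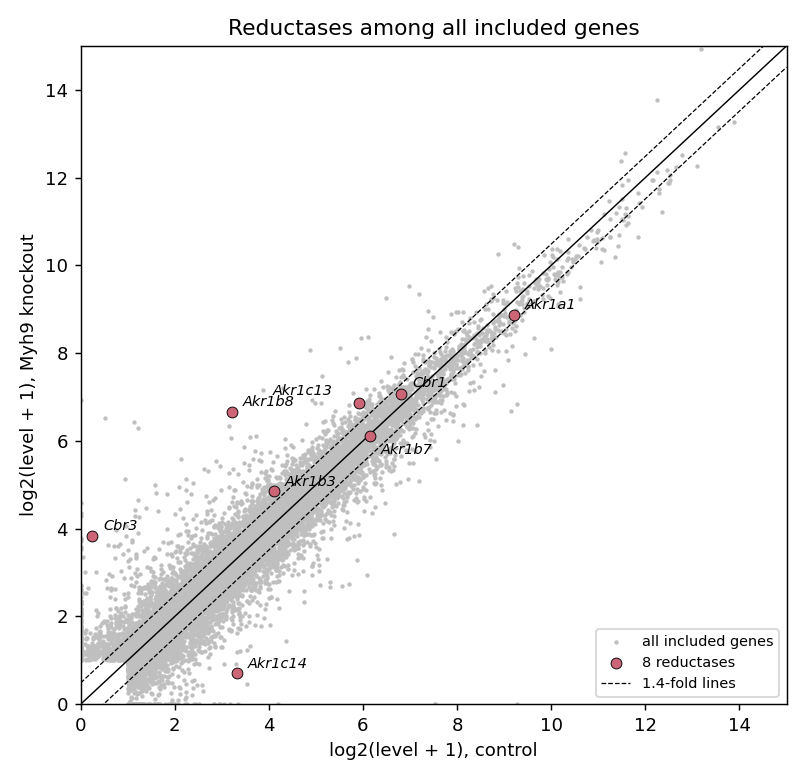
Log2 of level plus 1 in the control (x) and in the Myh9 knockout (y) for 12152 genes, with the 8 reductases marked; the solid line is equality and dashed lines are at 1.4-fold. Cbr3 and Akr1b8 lie far above the upper 1.4-fold line (log2 folds ranked 12 and 16 from the highest). Akr1c14 lies far below the lower line (ranked 19 from the lowest), and some other genes lie further out on both sides. Akr1b7, Cbr1 and Akr1a1 lie between the lines.

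The genes whose values in the 2 libraries were nearest to those of Cbr3 were found by distance on log2 of level plus 1, over 2 libraries, among genes reaching a level of 5. Il1rn, the interleukin-1 receptor antagonist, was nearest, at 0.20 in control and 13.1 in knockout epithelium. The immunoglobulin segment Ighv1-69 and the small nucleolar RNA gene Snora73b followed, both listed at 0 in the control. Nearest to Akr1c14 were Ces1d, a carboxylesterase, at 8.80 and 0.88, Gm15920, at 10.6 and 0.39, and Gkn3, at 7.31 and 0.88. With 2 libraries such likeness rests on 2 values a gene.

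Other short-chain dehydrogenases and related oxidoreductases, which reduce or oxidize carbonyl compounds, steroids, retinoids and fatty acyl chains, were also listed. Of 25 included genes, 1 was higher, 10 were lower and 14 lay between, beside 15.9% higher and 16.3% lower over all genes. Their median log2 fold was -0.41. The lists here and below were chosen with earlier results of these data known, so nothing is read from their counts beside those shares. Rdh7, which oxidizes retinol and steroids, was 49.8 in control and 12.5 in knockout epithelium. Dhrs3, a retinaldehyde reductase, was 30.7 and 11.7. Hsd11b2, which inactivates glucocorticoids, was 8.67 and 3.41. The 1 higher gene, Dhrs9, was 0.47 and 1.53, and it passed the filter only through the knockout. Cbr4, a mitochondrial carbonyl reductase, was 6.29 and 7.93. Aldehyde and alcohol dehydrogenases, which handle many of the same carbonyl compounds by oxidation or reduction, had 3 of 20 higher and 7 lower, with a median of -0.27. Aldh1b1, a mitochondrial enzyme, was 342 in control and 81.4 in knockout epithelium, 4.16-fold lower. Adh4, an alcohol dehydrogenase that also oxidizes retinol, was 7.95 and 2.24, and Aldh6a1, of valine breakdown, was 8.47 and 3.82. Aldh4a1, of proline breakdown, was 12.5 and 29.8, and the other 2 higher genes were below 1 in the control.

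In the list of NRF2 targets, from which the reductases were left out, 15 of 31 included genes were higher, 5 were lower and 11 lay between. Over all genes, 15.9% were higher and 16.3% lower. This list was chosen with earlier results of these data known, and its median log2 fold was 0.44. Hmox1 (0.26 in control and 3.44 in knockout epithelium) and Abcc4 (0.73 and 3.35), both called higher, were included only through the knockout. With a filter at a level of 5, 13 genes of the list were higher and 5 lower. The leading genes were of conjugation: the glutathione transferase Gsta3 was 3.24 in control and 29.8 in knockout epithelium, and Gsta2 was 10.1 and 56.8. The glucuronosyltransferase Ugt1a6a was 0.73 and 11.2, included only through the knockout. Members of both families have close copies or shared exons, and their separate values are uncertain. At the other end Cat, catalase, was 111 in control and 49.2 in knockout epithelium, Blvrb, a biliverdin reductase, was 47.7 and 22.2, and Gstp1 was 7.65 and 3.52. Nqo1, a quinone reductase often used as a readout of NRF2, was 30.6 and 39.7, under the threshold; it was named after its value was seen.

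Transcripts of NRF2 itself lay between the lines. Nfe2l2 was 85.9 in control and 82.6 in knockout epithelium, and Keap1 was 21.7 and 21.6. The partners of NRF2 were higher: Maff was 1.63 and 5.32, Mafg was 4.30 and 8.16, and Mafk was 9.09 and 14.7. In all, 4 of 8 regulator genes were higher and none was lower, beside 15.9% higher and 16.3% lower over all genes. The median over the list was 0.37 on the log2 scale. The fourth was Bach1, a repressor that competes for the same sites, at 12.3 and 18.3. Transcript levels do not measure the protein or its activity.

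**Figure D4:**
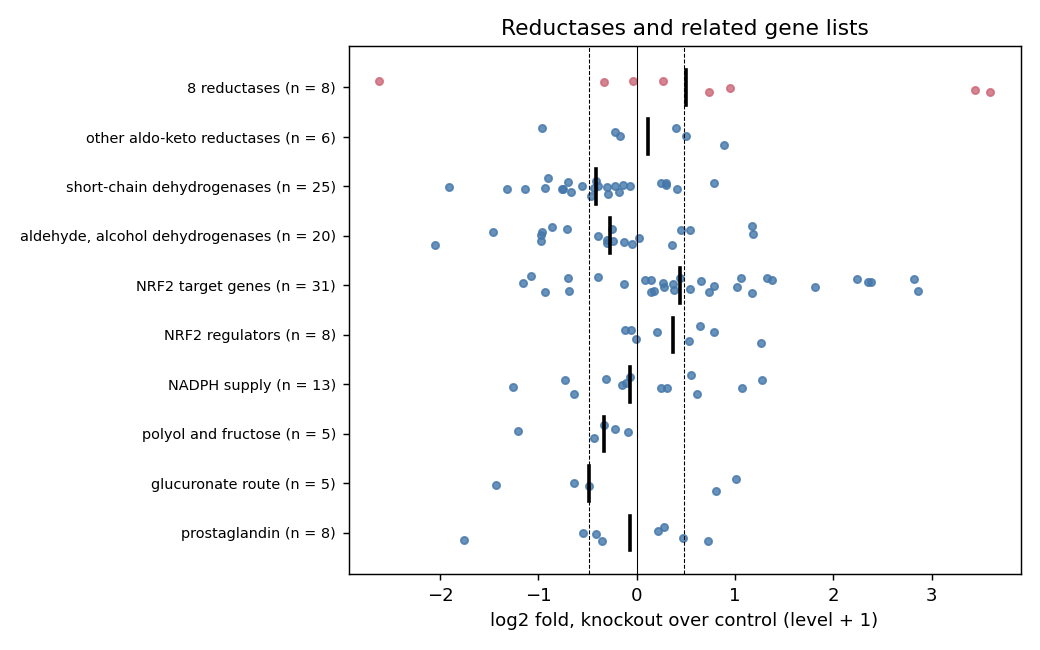
Log2 fold of level plus 1, knockout over control, for each included gene of the 8 reductases and of 9 related lists; black bars are medians and dashed lines are at 1.4-fold. The NRF2 target list has a median of 0.44 and the short-chain dehydrogenases one of -0.41.

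Enzymes that supply NADPH, the cofactor of these reductases, split. Of 13, 4 were higher, 3 were lower and 6 lay between, beside 15.9% higher and 16.3% lower over all genes. The list's median log2 fold of -0.07 became 0.04 under rescaling by totals. Me1, cytosolic malic enzyme, was 8.98 in control and 23.1 in knockout epithelium. H6pd, which makes NADPH in the endoplasmic reticulum, was 6.90 and 15.6, and Pgd of the pentose phosphate pathway was 215 and 329. Nnt, the mitochondrial transhydrogenase, was 17.1 and 6.53, the mitochondrial isocitrate dehydrogenase Idh2 was 74.1 and 44.3, and Pgls, of the pentose phosphate pathway, was 145 and 93.0. Nnt carries a deletion in the C57BL/6J substrain; the labels give C57BL/6 with no substrain, and whether both animals had the same Nnt allele was not tested.

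The pathways around Akr1b3 and Akr1a1 were described by 2 short lists. For scale, 15.9% of all 12152 included genes passed the 1.4-fold line upward and 16.3% passed it downward. In the polyol and fructose list 1 of 5 was lower and none was higher. The median was -0.34 on the log2 scale. Khk, which phosphorylates fructose, was 230 in control and 99.2 in knockout epithelium, while Sord, which turns sorbitol into fructose, was 73.0 and 68.6; Sord was named after its value was seen. On the glucuronate route, 2 of 5 were higher and 3 lower, and the median was -0.49. Ugdh, which makes UDP-glucuronate, was 113 and 198, and Gusb, beta-glucuronidase, was 14.5 and 30.2. Cryl1, Rgn and Xylb were lower: Cryl1, gulonate dehydrogenase, was 130 and 83.4, Rgn, gluconolactonase, was 5.24 and 1.31, and Xylb, xylulokinase, was 6.99 and 4.69, at 1.40-fold. Under rescaling by totals Xylb lay between the lines and 2 of the 5 were lower. Dcxr, which reduces xylulose on the same route and stands in the short-chain dehydrogenase list, was 47.4 and 41.6, between the lines; it was named after its value was seen. Among 8 genes of prostaglandin metabolism, 1 was higher and 2 were lower, and the median of -0.07 had no fixed sign: it was 0.21 with no filter on low levels, -0.35 at a level of at least 5 and 0.04 under rescaling by totals. The count of higher genes was 2 under some of the alternatives. Hpgd, which inactivates prostaglandins, was 74.9 and 21.4, and Ptges3, a prostaglandin E synthase that also acts as a co-chaperone, was 28.3 and 47.4.

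Cell type markers differed beside these values, and in bulk RNA fewer cells of a type and less RNA per cell cannot be told apart. Over all genes 15.9% were higher and 16.3% lower, and the marker lists too were chosen with earlier results known. Enterocyte markers were present in both libraries, with Vil1, villin, at 962 and 808, and of the 12 genes 1 was higher, 3 were lower and 8 lay between, with sums of 16469 and 18483 in which Rbp2 went from 2862 to 5321. The sums weight each gene by a level that may not be scaled to length, so they are given only beside the counts. Of 11 proximal small intestine markers, 1 was higher and 6 were lower, with sums of 5198 and 7844, in which Fabp1 went from 3018 to 6049. Of 12 distal markers, 5 were higher and 3 lower, with sums of 2282 and 3229. Stem cell markers were lower in 6 of 10 (sums of 764 and 203), Paneth in 7 of 10 (19093 and 10803), goblet in 4 of 9 (16346 and 12002), tuft in 5 of 6 (21.1 and 9.86) and lymphocyte in 10 of 12 (1071 and 499), with none higher in these lists. Villus tip markers were higher in 6 of 10 (1636 and 2202) and enteroendocrine markers in 5 of 10, with 2 lower (378 and 381). B and plasma cell genes were higher in 3 of 4 included genes (128 and 351), myeloid genes in 4 of 9, with 3 lower (52.6 and 47.9), stromal genes in 3 of 7 (41.5 and 41.8) and red cell genes in 2 of 3 (7.50 and 16.4). Of the markers with a row, S100a9 and Ly6g were listed at 0 in the control and no other marker was at 0 in either library. Some higher markers passed the filter only through the knockout: Slc10a2 (distal), Cd68, S100a9 and Ly6g (myeloid), and Acta2 and Tagln (stromal). Some lower markers passed it only through the control: Slc40a1 (proximal), Gkn3 (stem), and Rgs13 and Dclk1 (tuft). The part of these cell types and regions in the reductase values was not tested.

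**Figure D5:**
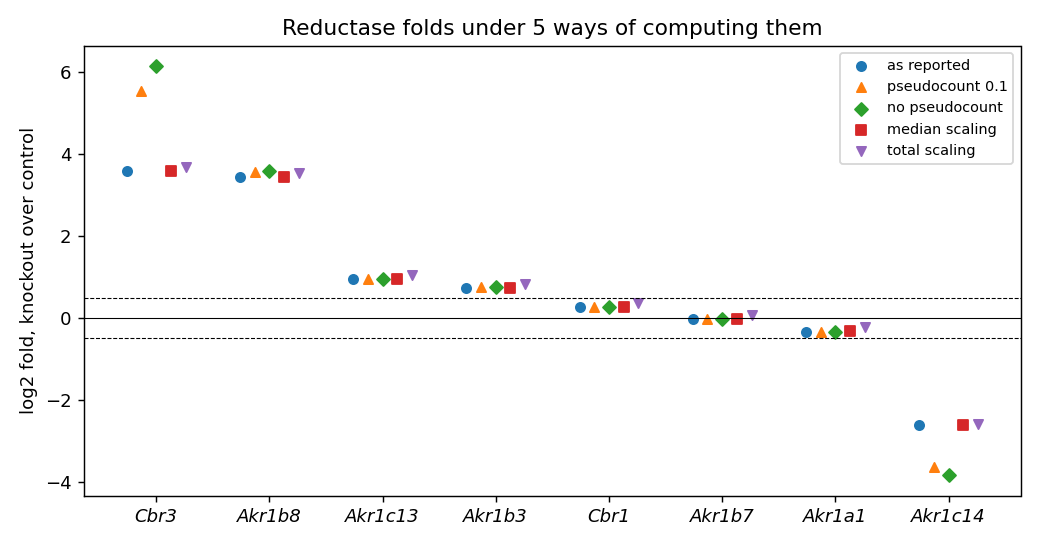
Log2 fold, knockout over control, of each reductase computed 5 ways: as reported, with a pseudocount of 0.1 or none, and with the knockout rescaled by the median fold or by totals; dashed lines are at 1.4-fold. No reductase crosses a 1.4-fold line between these settings, and Cbr3 runs from 3.59 to 6.14.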

How the data were processed

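RNA selection, depth and strand setting are not stated in the labels. The submitters' processing notes list HISAT2, StringTie and mm10, with no roles. The deposited table gave 1 signal value per gene and library, an expression level of unnamed unit to which the authors had added 1, since no value was below 1; that 1 was removed. The deposited ratio, the authors' fold change, was the ratio of its 2 values to within a relative 1.22e-07. A second deposited sheet repeated rows of the first and was not used. Columns were matched to samples by the animal number in the table and in the sample titles.

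Folds were computed on level plus 1 with pandas 2.3.3 for the 12152 rows that reached a level of 1 in either library, and called at 1.4-fold. No test was possible with 1 library per group. The calling step was tested on simulated data. The reductases and all gene lists were chosen with earlier results of these data known. Named genes were all reductases, Myh9, Nfe2l2, Keap1, the nearest genes of 2 reductases, and neighbours. Up to 3 genes per list and direction with the largest folds at a level of at least 5 were also named. Nqo1, Sord, Cbr4, Dhrs9, Bach1, Dcxr, Akr1c12, Akr1e1, Vil1, Rbp2, Fabp1, S100a9 and Ly6g were added after their values were seen. So were Hmox1, Abcc4, Aldh1a3, Slc10a2, Cd68, Acta2, Tagln, Slc40a1, Rgs13 and Dclk1. Positions came from GENCODE M21 and promoters from RefSeq GRCm38.p6. Transcripts were aligned with Biopython 1.88. Alternatives set were the pseudocount, the filter, the threshold and 2 rescalings. Protein identity was planned and is not reported here.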

Additional observations from a re-analysis of the deposited data

How the results depend on the processing

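Of 56 values of the 8 reductases under 7 alternatives, 54 kept their call and 2 did not: at a 2-fold threshold Akr1b3 (0.73) and Akr1c13 (0.95) were no longer called, which left 2 reductases higher. Dropping the level filter or raising it to 5 could not change a reductase call, since each reached at least 9.04 in 1 library. Rescaling by the median fold used a factor of 1.003 and could change little. The 2-fold threshold also lowered the counts over all 12152 genes to 546 higher and 520 lower. A filter at a level of 5 left 1284 lower, since fewer genes were included. At the 2-fold threshold the short-chain dehydrogenases had 0 higher and 3 lower of 25, and the other aldo-keto reductases 0 and 0 of 6. The NRF2 target list then had 11 higher and 2 lower of 31, and the aldehyde and alcohol dehydrogenases 2 and 2 of 20. Among these higher genes, Ugt1a6a, Hmox1, Abcc4 and Aldh1a3 passed the level filter only through the knockout. Rescaling to equal totals, with the 20 most abundant and the mitochondrial-genome genes left out, raised the knockout by a factor of 1.08 and moved the split over all genes from 1936 higher and 1985 lower (49.4% higher among those called) to 2444 and 1558 (61.1%). The median log2 fold of the NRF2 target list, 0.44, was 0.49 without a filter and 0.55 under that rescaling, and that of the glucuronate list, -0.49, was -0.40. Rescaling of the summed reductase level was not run, because levels may not be scaled to length. No paired analysis was possible because each group had 1 library. With depth unknown, the counting error of low levels such as Cbr3 in the control and Akr1c14 in the knockout cannot be given.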
